A study of Mus musculus with 2 samples.

Results

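Genes of synaptic vesicles and of SNARE-driven exocytosis were described in sorted bone marrow stromal cells of control and JAK2 V617F mice. They were found by symbol in the deposited expression table: the synaptotagmin (Syt), synaptotagmin-like (Sytl), syntaxin (Stx), syntaxin binding protein (Stxbp), VAMP, complexin (Cplx) and Rims families, together with the SNAP-25 family, Snap91, the synapsins, Sv2, Rab3 and Unc13 genes, Nsf, its partners Napa, Napb and Napg, and Ncs1. The rule gave 84 genes of 35798 rows, and it left out rows that name several genes. Both libraries came from adult C57BL/6 mice with the Nes-gfp reporter, in which nestin regulatory sequence drives GFP. Cells lacking CD45, CD31 and Ter119 and positive for GFP were sorted 6 weeks after pIpC. Littermates labelled Nes-gfp gave the control library, and the other came from Nes-gfp;Mx1-cre;JAK2-V617F mice. The Mx1 promoter answers to interferon, which pIpC induces, and is not restricted to stromal cells. Control labels name neither Cre nor the mutation, so effects of Cre and of JAK2 V617F cannot be told apart. Each library pooled 3 animals, with 1 library per genotype, so no value has a replicate error and no difference was tested.

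SNARE proteins fuse a vesicle with its target membrane. A VAMP on the vesicle winds together with a syntaxin and a SNAP-25 protein on the target, while Stxbp and Unc13 proteins set up the assembly, and the ATPase NSF with its SNAP adaptors (the Nap genes) takes the spent complex apart. Neurons and endocrine cells add calcium-triggered parts: synaptotagmins as calcium sensors, complexins as clamps, and Rab3, Rims, synapsins and Sv2 as vesicle and active zone proteins. Every cell uses the other paralogues for traffic between its own membranes, and blood cells use some of them for granule release.

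The values are FPKM, fragment numbers scaled to transcript length and library size, and so a level per length. The JAK2 V617F library is called the mutant pool from here on. Steps in the low values put the depth at about 5260000 fragments in the control pool and 6180000 in the mutant pool, if the libraries were not scaled. On a transcript of 2 kb a single fragment was worth 0.103 and 0.0879 FPKM. Differences are given as log2((JAK2 V617F FPKM + 1)/(control FPKM + 1)), which understates the change of low genes. A gene that reached 1 FPKM in a library was called higher or lower once the pools differed 2-fold or more on this scale. Stromal markers were present in both pools: all 8 were above 1 FPKM and within 2-fold, led by Cxcl12 at 891 and 694 FPKM, and the list summed to 1130 FPKM in the control pool and 884 in the mutant pool.

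Most of the summed level of the 84 genes came from broadly used paralogues, and these were within 2-fold between the pools, apart from Napa. The 5 highest members held 35.4% of the sum in the control pool (Napa, Vamp8, Stx2, Stxbp2 and Stx4a) and 34.0% in the mutant pool (Stx4a, Vamp8, Snap23, Vamp2 and Stx5a). Of the 84 members, 57 reached 1 FPKM in a library, 27 stayed below it in both, and 5 of those 27 (Syt13, Syt16, Snap91, Stxbp3b and Cplx3) were listed at 0 in both. Among the 57, 8 members (14.0%) were called higher in the mutant pool, against a background of 10.0% of the 12451 protein-coding genes at 1 FPKM or more. Another 6 (10.5%) were called lower, against a background of 8.67%. At this threshold and pseudocount both shares lay near the background, and the gap varied with the setting. At 3-fold, 10.5% were higher and 0% lower, against 3.32% and 2.65%. Without genes listed at 0 in a library, 9.43% were higher, against 8.06%. The median log2 ratio was 0.10 over the 57 and -0.04 over the protein-coding genes that passed the same filter. Over all 84 members it was 0.03, against 0.00 over all 19949 protein-coding genes. With the pools scaled to an equal FPKM total, which adds 0.18 to the log2 ratio of abundant genes, the calls split into 12 higher and 4 lower, and the background moved to 13.0% higher and 6.66% lower. The other 2 scalings each gave 9 higher and 5 lower, with a background of 11.4% higher in both and of 7.53% or 7.59% lower.

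**Figure D1:**
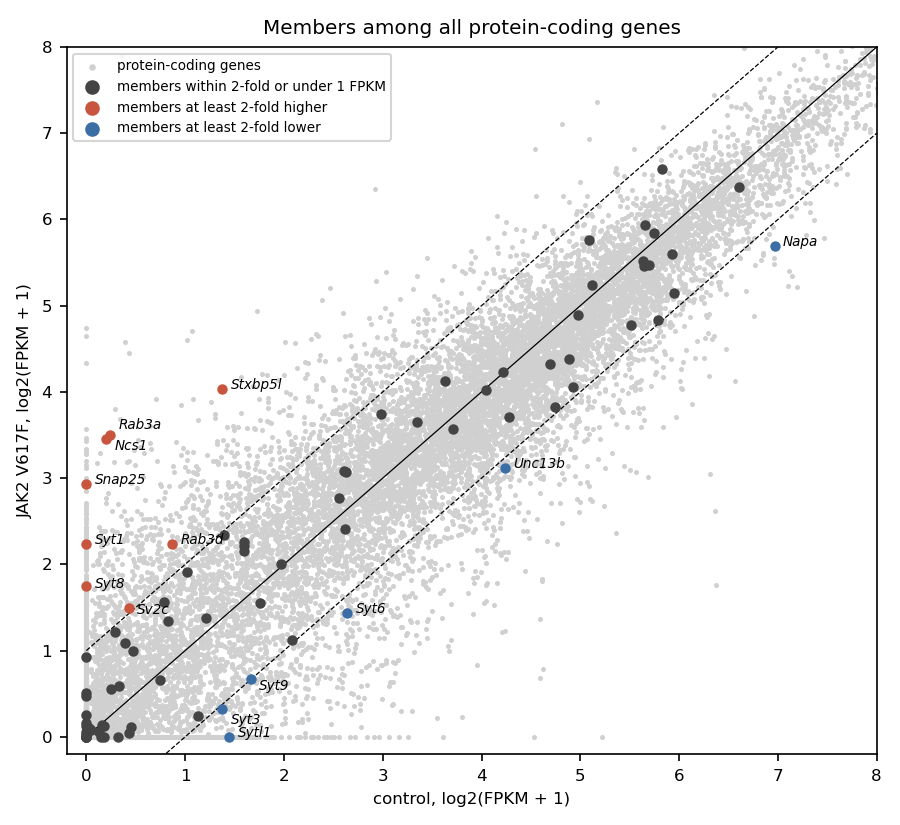
Each point is a gene, with the level in the control library on the horizontal axis and in the mutant pool on the vertical axis, both as log2(FPKM + 1) and drawn up to 8. The solid line marks equal values and the dashed lines 2-fold. The 8 members called higher lie at or below 15.4 FPKM, while Napa, called lower, is at 124 FPKM in the control.

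Members called higher were all low or absent in the control pool. Ncs1, which encodes neuronal calcium sensor 1, a calcium-binding protein of neurons and secretory cells, was at 0.151 FPKM in the control pool and 9.997 FPKM in the mutant pool (log2 ratio 3.26). Its single annotated coding transcript puts these levels at about 3.6 and 278 fragments. Rab3a, the main Rab GTPase of synaptic vesicles, was at 0.181 and 10.3 FPKM (3.25). Stxbp5l, or tomosyn-2, an inhibitor of SNARE assembly known mainly from brain, was at 1.60 and 15.4 FPKM (2.66), which made it the highest of the 8 in the mutant pool. The neuronal plasma membrane SNARE Snap25 was listed at 0 in the control pool and at 6.63 FPKM in the mutant pool. The calcium sensor of fast transmitter release, Syt1, was listed at 0 and at 3.72 FPKM. Syt8, a synaptotagmin found outside the nervous system as well, was listed at 0 and at 2.37 FPKM. The remaining 2 were Rab3d, a Rab of secretory granules, at 0.827 and 3.72 FPKM (1.37), and the vesicle glycoprotein gene Sv2c, at 0.346 and 1.81 FPKM (1.06).

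The counts behind these levels were small in the control. Annotated coding transcripts bracket the fragments of Stxbp5l between 12.9 and 35.6 in the control pool and between 146 and 403 in the mutant pool. Snap25 rested on 35 to 80.1 fragments and Syt1 on 105 to 107 in the mutant pool. Rab3a rested on 0.3 to 1.3 and on 22.1 to 88.7, and Syt8 on only 2.2 to 19.7. A listed 0 need not mean absence. None of 20 broadly used genes examined, such as Actb and Gapdh, was at 0 in either library. Their lowest values were 13.0 FPKM in the control pool and 9.35 FPKM in the mutant pool. They therefore cannot tell how genes of lower level come to be listed at 0. Rab3a shares its locus (chr8:70754679-70760921, GRCm38) with Mpv17l2, which was at 29.0 and 47.5 FPKM. The use of strand in counting is not given in the sources used here, and without it reads from overlapping genes cannot be told apart. Of the 57 members at 1 FPKM or more, 18 share a locus with another row at 1 FPKM or more. Among these are Vamp3, Snap29, Vamp1 and Syt12, and 2 of the 18 were called (Rab3a and Syt3). None of the other 7 genes called higher shares its locus with a row at 1 FPKM or more.

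The 6 members called lower were the abundant Napa, Unc13b and 4 genes under 6 FPKM in both pools. Napa encodes alpha-SNAP, the adaptor through which NSF reaches the SNARE complex. It was the highest of all members in the control library, at 124 FPKM, and was at 50.5 FPKM in the mutant pool (-1.28), or about 1538 and 736.5 fragments (chr7:16098458-16117975). Unc13b, the Munc13-2 priming factor, was at 17.9 and 7.68 FPKM (-1.12). Syt6 was at 5.24 and 1.70 FPKM (-1.21), Syt9 at 2.17 and 0.587 FPKM (-1.0003) and Syt3 at 1.59 and 0.254 FPKM (-1.05). Syt3 shares its locus with 1700008O03Rik, which was listed at 0 and at 1.43 FPKM. Sytl1, an effector of the secretory Rab27 proteins, was at 1.73 FPKM in the control pool and was listed at 0 in the mutant pool. Syt9 and Unc13b sat close to the line: both were within 2-fold at an equal FPKM total, at -0.93 and -0.96. Just inside it on the lower side were Syt12 (-0.95), Stxbp3a (-0.95), Unc13d (-0.93), Syt10 (-0.88) and Vamp5 (-0.87). On the higher side the nearest were Vamp7 (0.95), Stx1a (0.93) and Unc13a (0.89), and all 3 passed it at an equal total.

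Promoter sequence is shown for 4 of the members called higher and 2 called lower, because these are the 4 largest differences on the higher side with a window in the table, and the 2 highest genes on the lower side. RefSeq promoter windows (GRCm38.p6) were matched for 63 of the 84 members. Of these 63 windows, 53 also matched an annotated transcript of the same gene around the start. Some started far from the 5′ end of the member's locus, among them Snap29 (129700 bases) and Syt3 (24083 bases), which was called lower. Each line gives the bases before the annotated start, 5′ to 3′ on the gene's strand, without those inside the gene's locus in the expression table, which leaves out 122 bases for Napa, 100 for Ncs1 and 0 to 24 for the others. Capitals mark matches on either strand to the GC box GGGCGG, the CCAAT box CCAAT and the E-box CACGTG, so CCGCCC and ATTGG are the same boxes read on the opposite strand. No matches overlap. The printed stretches are chr8:70754453-70754678 (+) for Rab3a, chr2:31245673-31245822 (+) for Ncs1, chr16:37384963-37385208 (-) for Stxbp5l, chr10:109010983-109011225 (-) for Syt1, chr7:16098330-16098457 (+) for Napa and chr4:43058703-43058952 (+) for Unc13b.
Rab3a: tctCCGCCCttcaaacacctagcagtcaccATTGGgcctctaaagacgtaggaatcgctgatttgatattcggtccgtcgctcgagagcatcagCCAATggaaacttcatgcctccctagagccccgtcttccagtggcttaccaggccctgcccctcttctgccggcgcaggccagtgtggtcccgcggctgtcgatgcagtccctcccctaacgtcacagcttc
Ncs1: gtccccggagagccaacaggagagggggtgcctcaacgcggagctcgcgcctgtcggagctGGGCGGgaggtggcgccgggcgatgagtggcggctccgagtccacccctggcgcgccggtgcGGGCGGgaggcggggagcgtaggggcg
Stxbp5l: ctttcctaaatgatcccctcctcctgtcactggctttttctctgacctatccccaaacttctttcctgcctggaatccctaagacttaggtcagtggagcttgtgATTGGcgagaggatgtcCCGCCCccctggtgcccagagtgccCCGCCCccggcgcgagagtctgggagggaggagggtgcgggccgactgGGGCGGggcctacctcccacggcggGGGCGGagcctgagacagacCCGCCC
Syt1: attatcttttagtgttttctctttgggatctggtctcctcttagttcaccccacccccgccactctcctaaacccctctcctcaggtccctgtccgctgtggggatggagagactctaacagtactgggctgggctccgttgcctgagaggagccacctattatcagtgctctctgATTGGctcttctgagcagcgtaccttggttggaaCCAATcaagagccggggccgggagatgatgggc
Napa: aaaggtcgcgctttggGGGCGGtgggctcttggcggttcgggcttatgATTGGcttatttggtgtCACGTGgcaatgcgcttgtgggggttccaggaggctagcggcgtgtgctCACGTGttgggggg
Unc13b: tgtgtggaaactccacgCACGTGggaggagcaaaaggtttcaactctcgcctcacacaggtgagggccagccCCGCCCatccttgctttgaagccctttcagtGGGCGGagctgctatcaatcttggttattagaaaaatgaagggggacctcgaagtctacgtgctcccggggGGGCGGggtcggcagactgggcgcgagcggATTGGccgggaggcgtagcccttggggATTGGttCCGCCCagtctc

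Motifs were searched in the 250 bases before the start, including the bases not printed, so some matches counted here are not shown. GC boxes stood in 41 of the 63 members' windows (65.1%) and in 32.7% of all 32851 windows of the same length. Each member gave 1 window, the nearest to the 5′ end of its locus. All windows include several for some genes and were not limited to protein-coding or expressed genes. Shares and medians over all windows, here and below, therefore describe an unlike set. Ncs1 had 3 of them and Stxbp5l 5. The CCAAT box was in 18 members' windows (28.6%, against 33.9% of all windows), with 2 matches each in Rab3a, Syt1 and Unc13b. The E-box was in 9 members' windows (14.3%, against 6.02%). It stood in 3 of the 6 windows of genes called lower (Napa with 3 matches, Unc13b and Syt6) and in 0 of the 7 windows of genes called higher. The TATA box TATAAA was in 3 members' windows (12.4% of all), the cyclic AMP element TGACGTCA in 1 (1.55%) and the STAT-type element TTCNNNGAA in 4 (7.02%), and none of these was in a gene called higher or lower. The 2 parts of the neuron-restrictive element were searched apart: TTCAGCACC was in 1 member's window (0.301% of all) and GGACAGCGC in 0 (0.304%). The ratio of observed to expected CpG had a median of 0.708 in the windows of genes called higher and 0.643 in those called lower, against 0.639 in the 50 other members' windows and 0.374 over all windows. In members at 20 FPKM or more in both pools it was 0.798. The highest and the lowest among genes called higher were Ncs1 (0.972) and Syt8 (0.0533), so these promoters were not alike in base composition. A match describes letters in the window and not a bound site.

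**Figure D2:**
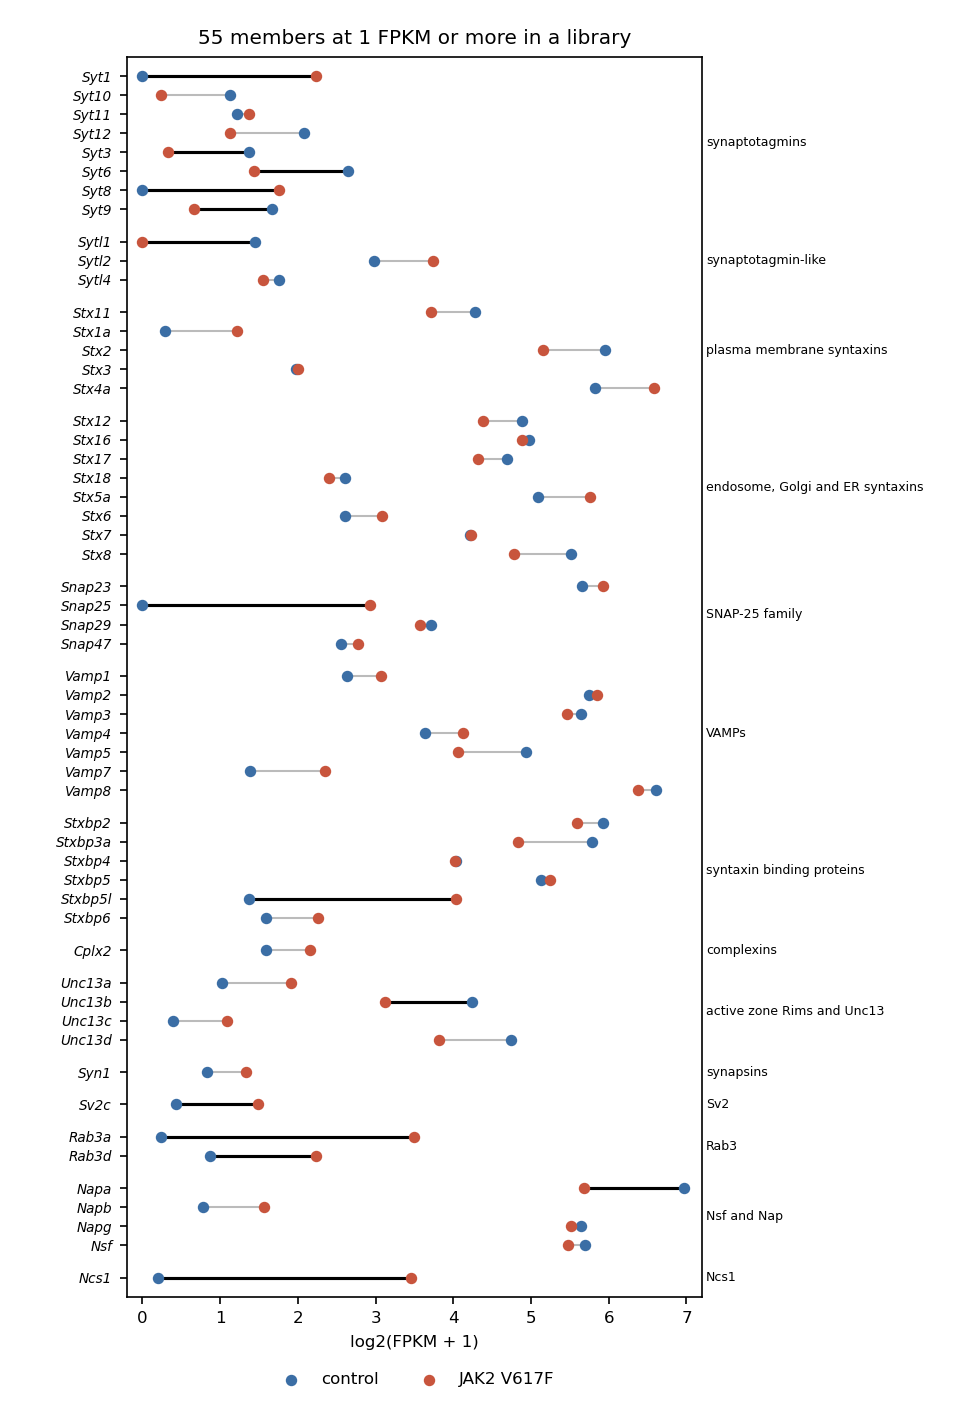
Levels of 55 of the 57 members at 1 FPKM or more in a library, grouped by family, as log2(FPKM + 1). Blue points are the control and red points the mutant pool, and black bars join the values of the 14 members past 2-fold, which are mostly at the low end, apart from Napa.

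Among the synaptotagmins, not all of which bind calcium, calls went both ways. Of 17 synaptotagmins, 8 reached 1 FPKM, 2 were called higher (Syt1 and Syt8) and 3 lower (Syt3, Syt6 and Syt9). All 8 were under 6 FPKM, and of protein-coding genes between 1 and 5 FPKM, 20.9% were called higher and 11.2% lower. The family summed to 15.8 FPKM in the control pool and 12.6 in the mutant pool. In the control the leading member was Syt6, with 33.3% of the sum, followed by Syt12 (3.24 FPKM, 20.5%). In the mutant pool it was Syt1 (29.4%), followed by Syt8 (18.7%). Syt10, with 1 annotated transcript, was at 1.19 and 0.187 FPKM, or about 10 and 2 fragments, a ratio of 0.170 with an exact (Clopper-Pearson) 95% counting interval of 0.0181 to 0.799. Such an interval covers counting error between 2 libraries only. Syt12 was at 3.24 and 1.19 FPKM. Syt11, which binds no calcium, was at 1.32 and 1.60 FPKM. Of the sensors of fast or slow release, Syt2 and Syt7 were near the limit of detection, with Syt2 listed at 0 and at 0.0255 FPKM and Syt7 at 0.133 and 0.0881 FPKM.

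Among the 5 synaptotagmin-like genes, Sytl2 was the highest, at 6.90 and 12.4 FPKM (0.76), and its share of the family's sum was 61.3% in the control pool and 84.1% in the mutant pool. Sytl4, or granuphilin, was at 2.38 and 1.92 FPKM. Sytl3 and Sytl5 stayed under 1 FPKM.

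No syntaxin passed 2-fold. At the plasma membrane, Stx2 was at 60.9 FPKM in the control pool and 34.6 in the mutant pool (-0.80), and Stx4a, which encodes syntaxin 4, the broad partner of Snap23, was at 55.6 and 95.2 FPKM (0.76). Stx2 held 43.4% and Stx4a 39.6% of the plasma membrane syntaxin sum in the control pool, against 23.0% and 63.3% in the mutant pool, so their order was reversed. The neuronal Stx1a was at 0.220 and 1.33 FPKM (0.93), from 0.5 to 2.3 and 3.2 to 16.4 fragments. Stx11, needed for granule release by cytotoxic lymphocytes, was at 18.4 and 12.1 FPKM (-0.57). Stx3, an apical syntaxin, was at 2.93 and 3.00 FPKM. The summed level of the group was 140 and 150 FPKM.

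All 8 syntaxins of endosomes, the Golgi and the ER were above 4 FPKM in both libraries, and 3 had ratios above 0 and 5 below. Stx8, a late endosomal syntaxin, was at 44.7 and 26.5 FPKM (-0.73). Stx5a, which serves traffic between ER and Golgi, was at 33.1 and 53.2 FPKM (0.67). Stx12, a recycling endosome syntaxin, was at 28.5 and 19.8 FPKM (-0.50). Stx17, the syntaxin of autophagosome fusion, was at 24.8 and 19.0 FPKM (-0.37). Stx6, of the trans-Golgi, was at 5.09 and 7.44 FPKM (0.47). Stx16 (30.6 and 28.6 FPKM), Stx7 (17.6 and 17.8 FPKM) and Stx18 (5.12 and 4.30 FPKM) differed less. The group's median was -0.15 as deposited and 0.01 at an equal FPKM total, so its sign depended on the scaling.

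In the SNAP-25 family the broad member carried most of the level in both pools. Snap23 was at 49.5 and 60.1 FPKM (0.27), Snap29, a SNARE of endosomes and autophagosomes, at 12.1 and 10.9 FPKM, and Snap47 at 4.88 and 5.84 FPKM. Snap25 made up 7.95% of the family's sum in the mutant pool, and Snap23 72.0%, against 74.4% in the control. The order of the other 3 was the same in both pools.

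All 7 VAMPs were detected in both libraries and none passed 2-fold. Vamp8, used in granule and late endosome fusion, was the highest, at 96.4 and 82.4 FPKM (-0.22). The synaptic and broadly used Vamp2 was at 52.5 and 56.5 FPKM (0.10) and Vamp3, or cellubrevin, at 48.9 and 43.1 FPKM (-0.18). Vamp5, which lies 4754 bases from Vamp8 on chromosome 6, was at 29.5 and 15.6 FPKM (-0.87). Vamp4 was at 11.4 and 16.4 FPKM (0.49) and Vamp1 at 5.19 and 7.38 FPKM (0.44). Vamp7, a lysosomal and secretory VAMP listed on a separate scaffold of the build, was at 1.62 and 4.08 FPKM. With 1 annotated transcript it had about 20 and 60 fragments, a ratio of 2.55 (interval 1.52 to 4.47). The family's sum was 246 and 225 FPKM, and the order of these sums was reversed at an equal FPKM total (255 FPKM for the mutant pool).

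Among the syntaxin binding proteins, only Stxbp5l passed 2-fold. Its broad paralogue Stxbp5, or tomosyn-1, was at 33.9 and 36.9 FPKM (0.12), so that Stxbp5l made up 4.51% of the pair's level in the control pool and 29.4% in the mutant pool. Stxbp2, or Munc18-2, the partner of Stx11 in granule release, was at 59.8 and 47.4 FPKM (-0.33). Stxbp3a, or Munc18-3, the partner of syntaxin 4, was at 54.1 and 27.5 FPKM (-0.95), while Stx4a itself had a ratio above 0. Stxbp4 was at 15.5 and 15.2 FPKM and Stxbp6 at 2.03 and 3.81 FPKM (0.67). The family's sum was 176 and 158 FPKM as deposited and 176 and 178 FPKM at an equal total.

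Of the priming and active zone genes, the Rims genes were under 0.5 FPKM in both pools and the Unc13 genes differed among themselves. Unc13d, or Munc13-4, the priming factor of blood cell granules, was at 25.9 and 13.1 FPKM (-0.93), and with Unc13b it held most of the group's sum of 45.7 FPKM in the control pool and 25.4 FPKM in the mutant pool. The neuronal Unc13a was at 1.03 and 2.77 FPKM (0.89) and Unc13c at 0.315 and 1.13 FPKM (0.70). Unc13a made up 5.43% of the summed level of Unc13a and Unc13b in the control pool and 26.5% in the mutant pool. It shares its locus with Glt25d1, which was at 10.8 and 17.1 FPKM.

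The Nsf and Nap group was led by broad members in both pools. Nsf was at 50.9 and 43.4 FPKM (-0.23) and Napg, or gamma-SNAP, at 48.8 and 44.8 FPKM (-0.12), so Napa alone of the 3 abundant genes was past 2-fold. Napa was the highest of the 4 in the control pool and remained so in the mutant pool, where the 3 lay between 43.4 and 50.5 FPKM. Napb, or beta-SNAP, the paralogue known from brain, was at 0.723 and 1.96 FPKM (0.78). It made up 0.580% of the level of Napa and Napb in the control pool and 3.74% in the mutant pool. The pairs of paralogues compared here were chosen after their values were seen.

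Vesicle and calcium-clamp genes were low throughout. Rab3 genes summed to 1.03 FPKM in the control pool and 14.5 FPKM in the mutant pool, with Rab3d holding 80.3% of the sum in the control pool and Rab3a 71.1% in the mutant pool. Rab3b and Rab3c stayed under 0.4 FPKM. Syn1 was at 0.778 and 1.53 FPKM (0.51), and its locus also holds Araf (89.3 and 86.0 FPKM) and Timp1 (76.9 and 28.2 FPKM). Syn3 was at 0.387 and 0.986 FPKM, while Syn2 was at 0.131 FPKM and listed at 0. Sv2a was listed at 0 and at 0.0891 FPKM, and Sv2b was at 0.352 and 0.0307 FPKM, so Sv2b and Sv2c were level in the control pool and Sv2c made up 93.8% of the family's sum in the mutant pool. Cplx2, the complexin also found outside neurons, was at 2.02 and 3.45 FPKM, from about 51 and 102 fragments, a ratio of 1.70 (interval 1.21 to 2.43). Cplx1, the main complexin of fast synapses, was listed at 0 and at 0.902 FPKM, just under the filter. It passed both filter and fold at an equal FPKM total. Cplx4 was near 0.1 FPKM in both.

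**Figure D3:**
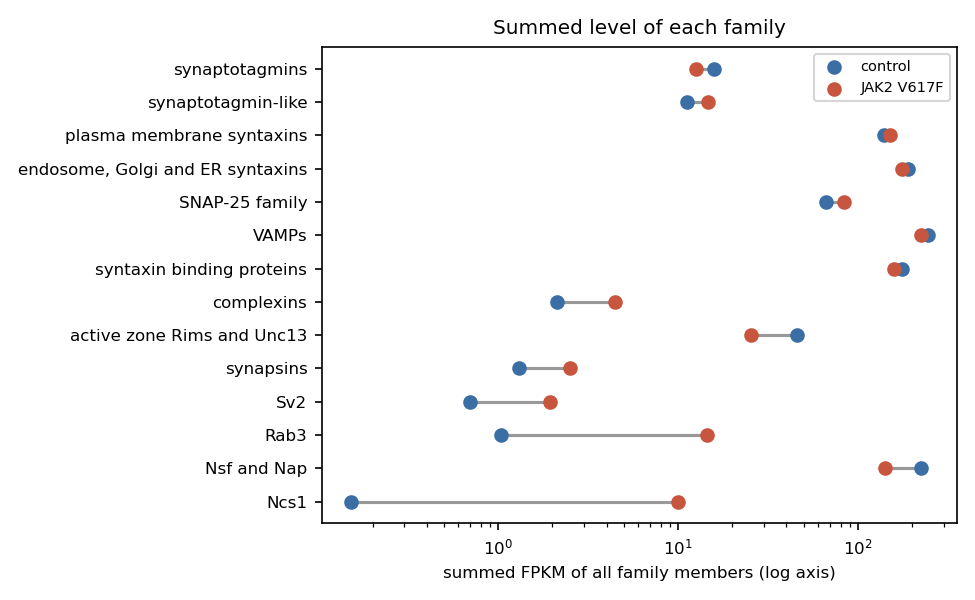
Summed FPKM of all members of each family in the control (blue) and JAK2 V617F (red) pools, on a log axis. Syntaxins, VAMPs, syntaxin binding proteins, SNAP-25 and Nsf and Nap genes lie above 60 FPKM in both, with Nsf and Nap at 224 and 141 FPKM. The farthest apart are Ncs1 and Rab3.

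Differences were read against genes of similar level, since low genes pass 2-fold more often. Between 1 and 5 FPKM in the higher library, 4 of 21 members were called higher and 3 lower, where the backgrounds were 20.9% and 11.2% of 2892 protein-coding genes. Between 5 and 20 FPKM, 4 of 17 were called higher (Snap25, Stxbp5l, Rab3a and Ncs1) and 2 lower, with backgrounds of 10.3% and 9.29%. At 20 FPKM or more, 0 of 19 were called higher and 1 lower, with backgrounds of 3.64% and 6.75%. In this highest band 14 of 19 members had ratios below 0, and the members' median was -0.23, against -0.13 for the 5158 protein-coding genes of the band. These are values as deposited, before the shift of 0.18 at an equal FPKM total. The higher calls all came from members under 20 FPKM.

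**Figure D4:**
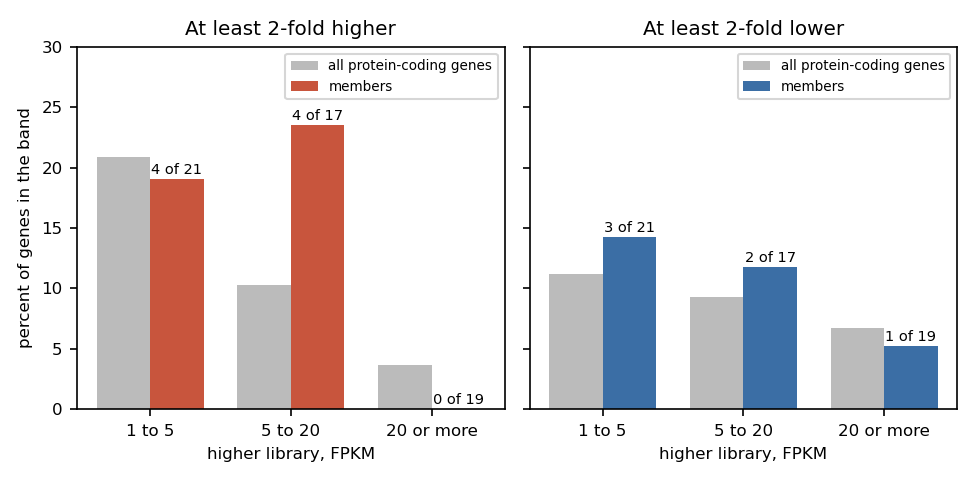
Percent of genes at least 2-fold higher (left) or lower (right) in the mutant pool, by band of the level in the higher library, for all protein-coding genes (grey) and members (coloured, with counts). Members exceed the grey bar most between 5 and 20 FPKM on the higher side, where 4 of 17 were called.

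More members crossed the level of 1 FPKM towards the mutant pool than away from it. There were 11 members (13.1%) under 1 FPKM in the control pool and at 1 FPKM or more in the mutant pool, namely Syt1, Syt8, Stx1a, Snap25, Unc13c, Syn1, Sv2c, Rab3a, Rab3d, Napb and Ncs1. The same held for 4.98% of all protein-coding genes. The opposite crossing was made by 4 members (4.76%), Syt3, Syt9, Syt10 and Sytl1, and by 3.03% of protein-coding genes. Of the 11, 7 were called higher, near the background of 63.5% for protein-coding genes that made the same crossing. The mutant pool had 18883 rows above 0 FPKM against 16913. By the steps in the low values it was somewhat deeper, if the libraries were not scaled. The part of depth in these crossings was not tested.

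Genes of the same pathway outside the member rule did not show one direction. Of 33 listed neuronal vesicle and active zone genes, 32 could be measured and 13 reached 1 FPKM, of which 3 were called higher, 3 lower and 7 neither, with a median of -0.52. Higher were Rph3a, the Rab3 effector rabphilin (1.93 and 6.52 FPKM), Ppfia3, an active zone scaffold (listed at 0 and at 1.87 FPKM), and the vesicle protein Syp (0.476 and 2.06 FPKM). Lower were Synj1, the phosphatase of vesicle uncoating (137 and 36.4 FPKM), the active zone gene Bsn (5.55 and 1.78 FPKM) and Syngr1 (13.5 and 5.60 FPKM). The vesicular glutamate and GABA transporter genes Slc17a6 and Slc32a1 were listed at 0 in both libraries, as were Th, the first enzyme of noradrenaline synthesis, and the granule protein gene Scg2. All 38 genes of a list of broad SNAREs, SM proteins and tethers reached 1 FPKM. In that list 2 were called higher, the exocyst gene Exoc6b (7.64 and 20.8 FPKM) and the Golgi SNARE Bet1l (5.09 and 13.4 FPKM), and 0 lower. The median was -0.02. For both lists the background over protein-coding genes at 1 FPKM or more was 10.0% higher and 8.67% lower. Scfd2 (31.9 and 15.8 FPKM) and Vti1a (29.0 and 14.4 FPKM) were the farthest below 0, both within 2-fold.

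Markers of other cell types differed between the same pools, and their part in the members' values was not tested. In these bulk samples, fewer cells of a type and less RNA per cell cannot be told apart. Of 14 neuron markers, 2 are members (Snap25 and Syt1) and 11 others could be measured. Among the 11, 7 reached 1 FPKM and 6 were called higher (Nefl, Nefm, Stmn2, Gap43, Prph and Uchl1). All of these but Uchl1 were under 1 FPKM in the control pool. Of protein-coding genes under 1 FPKM in the control pool and at 1 FPKM or more in the mutant pool, 63.5% were called higher. Over all protein-coding genes at 1 FPKM or more, 10.0% were called higher and 8.67% lower. The 11 summed to 2.33 FPKM in the control pool and 13.8 FPKM in the mutant pool. Of the defining neuron markers, Elavl4 was listed at 0 in both and Tubb3 was listed at 0 and at 0.112 FPKM. Rbfox3, which encodes the neuronal nuclear antigen NeuN, lay the other way, at 1.10 and 0.437 FPKM (-0.55). Schwann cell markers summed to 691 and 5015 FPKM, almost all of it Mbp (624 and 4872 FPKM), while Sox10 was at 2.30 FPKM in both, and 2 of 8 were called higher. No neuron marker outside the member list reached 5 FPKM.

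Blood cell markers differed in both directions, although the sort was against CD45, CD31 and Ter119. The counts given are of genes at 1 FPKM or more, against backgrounds of 10.0% higher and 8.67% lower. Megakaryocyte and platelet markers summed to 9.62 and 56.7 FPKM, with 3 of 6 called higher, and the platelet chemokine genes Pf4 and Ppbp listed at 0 in the control pool and at 24.1 and 9.76 FPKM. Itga2b was at 5.30 and 5.09 FPKM. Mast cell and basophil markers summed to 25.6 and 47.8 FPKM (2 of 5 higher), with Cpa3 at 1.12 and 14.2 FPKM and Cma1 listed at 0 in both. Hdc, the highest of that list in the control pool, was at 15.6 and 14.0 FPKM, and Tpsb2 was at 0.709 FPKM and listed at 0. The T and NK markers summed to 31.7 and 97.8 FPKM (4 of 4 higher), of which Nkg7 was 27.3 and 76.6 FPKM. Of these 4, Gzmb and Cd4 were listed at 0 in the control pool and passed the filter only through the mutant pool. The other 4 of the 8 measured stayed below 1 FPKM. Prf1 and Gzma were listed at 0 in both, and Cd3e was listed at 0 and at 0.285 FPKM. Cd8a lay the other way, under 1 FPKM in the control pool and listed at 0 in the mutant pool. Monocyte and macrophage markers summed to 214 and 189 FPKM (5 of 6 higher), of which Lyz2 was 207 and 157 FPKM, and C1qa was listed at 0 in both. Neutrophil markers summed to 2253 and 2267 FPKM (0 higher and 3 lower of 7), erythroid markers to 2540 and 1274 FPKM (0 higher and 2 lower of 8) and B and plasma cell markers to 110 and 120 FPKM (1 higher and 1 lower of 6). Endothelial markers summed to 33.2 and 40.5 FPKM (2 of 7 higher), and chondrocyte markers to 333 and 1871 FPKM (6 of 8 higher), of which Prg4 was 20.1 and 1234 FPKM.

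**Figure D5:**
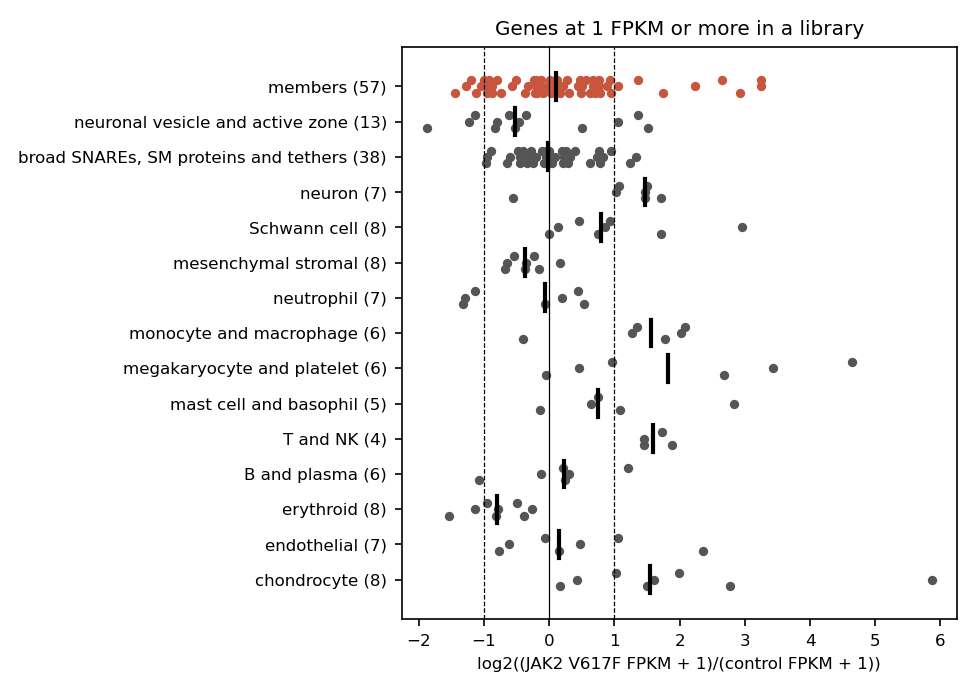
Log2 ratio of each gene at 1 FPKM or more in a library, for the 57 members (red), 2 related lists and 12 marker lists without members, with the number of genes in brackets and the median as a black bar. Dashed lines mark 2-fold. The members centre near 0 with a tail to the right, while neuron, megakaryocyte, T and NK, monocyte and chondrocyte markers centre above 1. Genes that pass the filter only through 1 pool had to differ. Over all measured genes, filtered or not, these 5 medians were 1.03, 0.97, 0.90, 1.31 and 1.55 in that order.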

How the data were processed

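RNA from 2 pools of sorted cells was amplified with the Ovation RNA-Seq System v2 and sequenced on a Genome Analyzer IIx, per the labels' protocols. The authors deposited 1 FPKM value per gene and library, and per the file headers no counts. The submitters' processing notes list TopHat2 2.0.7 with Bowtie2 2.0.6, cutadapt 1.2.1, Cufflinks and build GRCm38. Which annotation release and strand setting served, and whether libraries were scaled, is not given in the sources used here. Of the rows, 401 name several genes.

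Members were found by symbol, and 2 of them are counted but not reported singly here. A RefSeq table of GRCm38.p6 gave gene types, with 19949 protein-coding genes in single-gene rows. The pseudocount was 1. Depth was estimated from 5601 genes to which GENCODE vM21 gives 1 transcript at an identical locus: FPKM times length minus 160 nt, the best of 31 offsets tried, fell into steps, and 82.3% and 83.7% of values below 3.5 fragments lay within 0.2 of a whole number. That offset and step were fitted to the same genes. For other genes, fragments are bracketed by the shortest and longest annotated coding transcript. Reads carry no molecular identifiers, so intervals cover counting error only. The depth scripts were tested on simulated data.

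With 1 library per group, no test or p-value is given. Members and lists were chosen with earlier results of these data known. Genes named with values are all members past 2-fold, each family's highest, those listed at 0 in 1 library and at 1 FPKM in the other, those near the 2-fold line, those at 50 FPKM or more, the 4 largest changes of each related list, the defining cell type markers, and other members that show a family's range. Alternatives were other pseudocounts, filters, thresholds and scalings. Python 3.11.15, pandas 2.3.3, NumPy 2.4.6 and SciPy 1.17.1 were used.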

Additional observations from a re-analysis of the deposited data

How the results depend on the processing

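The count of members called higher, 8 as reported, was 13 with a pseudocount of 0.1, 4 with a pseudocount of 5, 4 among members reaching 5 FPKM, 18 at 1.5-fold, 6 at 3-fold and 5 without members listed at 0 in a library. As shares of the members that passed each filter, 14.0% as reported, these were 22.8%, 7.02%, 11.1%, 31.6%, 10.5% and 9.43%. The share of protein-coding genes called higher, 10.0% as reported, was 13.6%, 2.35%, 6.72%, 19.0%, 3.32% and 8.06% in the same order. The count called lower, 6 as reported, was 8 with a pseudocount of 0.1, 1 with a pseudocount of 5, 3 among members reaching 5 FPKM, 13 at 1.5-fold and 0 at 3-fold. As shares of the members that passed, 10.5% as reported, these were 14%, 1.75%, 8.33%, 22.8% and 0%. The share of protein-coding genes called lower, 8.67% as reported, was 11.3%, 3.02%, 7.92%, 19.2% and 2.65% in that order. Ncs1, Rab3a, Stxbp5l and Snap25 were called higher at every pseudocount, filter, scaling and fold run, apart from the setting that leaves out genes listed at 0, which removes Snap25. The median log2 ratio of the filtered members, 0.10, was 0.28 at an equal FPKM total, 0.21 after rescaling without abundant rows and 0.20 with the median ratio of coding genes set to 0. It was -0.11 among members reaching 5 FPKM, with fewer members left. The median over protein-coding genes, -0.04 as deposited, moved the same way, to 0.13, 0.05, 0.05 and -0.08 in the same order. It was not 0 at the last scaling, whose factor was set on genes at 5 FPKM or more in both pools. Over the 57 members and 5 other scales, 25 of 285 ratios crossed the 2-fold line and 0 calls changed sign. Low depth limits the genes under 1 FPKM most, where a few fragments decide the level. No paired analysis was possible because each group has 1 library.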
